A study of Arabidopsis thaliana with 16 samples.

Results

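Regulators of seed dormancy other than DOG1, most of them chromatin or transcription factors, were followed as stored transcripts in Arabidopsis dry seeds. They are 9 of the 37336 locus identifiers counted and are defined by locus identifier. MFT, RDO5, RDO2, HUB1 and HUB2 passed the filter on low counts and were tested, and KYP, LDL1, LDL2 and ATXR7 did not pass it. Mature dry seeds of 4 genotypes were profiled by 3′RNA-Seq, which reads the ends of polyadenylated transcripts from an oligo(dT) primer, with 4 biological replicates per genotype and 16 libraries in all. The genotypes were the double mutant brm-3dog1-4, each single mutant (brm-3 and dog1-4), and the wild type, ecotype Col-0. The brm-3 allele is a T-DNA insertion in BRM, the ATPase of a SWI/SNF chromatin remodelling complex, and was used in place of a sterile knockout, so it need not remove all BRM function. The dog1-4 allele is an insertion in DOG1, the central dormancy gene of Arabidopsis. The double mutant carried both alleles, and the seeds of every genotype had been harvested and stored dry at room temperature.

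Seed dormancy keeps a mature seed from germinating until it has been released, and it is set during maturation on the mother plant. Several of its regulators act on chromatin during that phase. HUB1 and HUB2 add ubiquitin to histone H2B and RDO2 is an elongation factor of RNA polymerase II, and mutants of all 3 have reduced dormancy. KYP methylates histone H3 at lysine 9 and LDL1 and LDL2 are histone demethylases, and these genes restrain dormancy. ATXR7 methylates histone H3 at lysine 4. RDO5 is a protein of the PP2C phosphatase family that promotes dormancy, and MFT is a seed-expressed relative of the flowering protein FT that acts in the abscisic acid and gibberellin control of germination.

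In the TAIR10.1 assembly MFT (AT1G18100) lies on chromosome 1 at 6227217 to 6230194 on the minus strand, and RDO5 (AT4G11040) on chromosome 4 at 6745100 to 6746944 on the plus strand. RDO2 (AT2G38560) lies on chromosome 2 at 16134543 to 16136695 on the plus strand, HUB1 (AT2G44950) on the same chromosome at 18542175 to 18548652 on the minus strand, and HUB2 (AT1G55250) on chromosome 1 at 20606953 to 20612649 on the plus strand. The annotation gave both HUB1 and HUB2 19 exons in their longest coding transcript, whereas MFT and RDO5 had 4 and RDO2 had 2. KYP (AT5G13960) starts at 4501362 on chromosome 5, LDL1 (AT1G62830) at 23264486 on chromosome 1, LDL2 (AT3G13682) at 4478873 on chromosome 3 and ATXR7 (AT5G42400) at 16953515 on chromosome 5. The MFT gene overlapped AT1G18090 on the opposite strand over 606 bases, and that neighbour had 20 counts in the 16 libraries, against 2324 for MFT.

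The 250 bases upstream of the annotated starts of MFT, RDO5 and HUB2 are shown because these were the members that were called higher in dog1-4 and in brm-3dog1-4 seeds and no other gene lies in their windows. They come from RefSeq's TAIR10.1 genome, are read 5′ to 3′ on the strand of the gene, and span chr1:6230195-6230444 (minus strand), chr4:6744850-6745099 (plus strand) and chr1:20606703-20606952 (plus strand). Capitals mark ACGTG, the core of the abscisic acid response element, on either strand.
MFT: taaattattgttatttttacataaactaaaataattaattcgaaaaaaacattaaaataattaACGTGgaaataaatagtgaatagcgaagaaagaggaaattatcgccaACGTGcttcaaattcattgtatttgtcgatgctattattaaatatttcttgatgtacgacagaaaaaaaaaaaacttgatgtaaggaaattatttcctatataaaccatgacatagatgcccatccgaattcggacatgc
RDO5: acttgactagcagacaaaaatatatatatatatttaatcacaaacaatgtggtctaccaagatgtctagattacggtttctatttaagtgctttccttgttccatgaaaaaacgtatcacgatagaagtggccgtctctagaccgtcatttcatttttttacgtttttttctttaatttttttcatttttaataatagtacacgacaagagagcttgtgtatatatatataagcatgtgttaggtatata
HUB2: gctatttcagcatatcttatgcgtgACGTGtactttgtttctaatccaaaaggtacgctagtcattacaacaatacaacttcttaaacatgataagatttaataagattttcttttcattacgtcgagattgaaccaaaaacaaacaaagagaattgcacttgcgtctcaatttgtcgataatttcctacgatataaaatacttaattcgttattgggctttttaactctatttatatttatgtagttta
The MFT window held 2 copies of ACGTG, the HUB2 window held 1 and the RDO5 window held 0, and 22.9% of the 27443 windows of this length upstream of protein-coding genes held at least 1. The windows of RDO2, HUB1, KYP, LDL1, LDL2 and ATXR7 held 0 copies of ACGTG. The seed motif CATGCA, searched on both strands, was in 0 of the 3 windows shown and in 8.4% of all windows. Among the other members it was in the windows of LDL2 and ATXR7. The 3 windows shown were picked by their calls, so their share cannot be set against that of all windows. These counts describe the letters of the windows and not binding.

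Library totals were 977878 to 2359673 counts in brm-3dog1-4, 1627347 to 2031600 in brm-3, 803578 to 1516604 in dog1-4 and 1467125 to 2273515 in Col-0. DOG1 averaged 3.15 ± 1.63 CPM (TMM-scaled reads per 1e+06 counted) in brm-3dog1-4, 104 ± 14.3 in brm-3, 3.52 ± 1.34 in dog1-4 and 100 ± 15.2 in Col-0, and BRM averaged 12.7 ± 3.98, 11.8 ± 4.50, 31.0 ± 8.33 and 28.0 ± 6.12 CPM in the same order (SD, n = 4 each). By library, DOG1 was at most 5.34 CPM with the dog1-4 allele and at least 80.4 CPM without it. For BRM the margin was narrow, with 18.4 CPM in brm-3 replicate 1 and 19.3 CPM (24 counts) in Col-0 replicate 3. The dog1-4 labels were therefore clear by library. BRM was lower in every library with the brm-3 allele than in every library without it. As that margin was narrow, the brm-3 labels were clearer by group mean. All 13 seed marker genes had counts in every genotype, and their summed level was 89103 to 113564 CPM in brm-3dog1-4, 139010 to 177886 in brm-3, 122487 to 169154 in dog1-4 and 135267 to 191248 in Col-0. Of 9 leaf markers, 5 had counts in brm-3dog1-4, 6 in brm-3, 5 in dog1-4 and 3 in Col-0, with summed levels of 64.8 to 115, 27.3 to 33.5, 36.1 to 55.0 and 7.32 to 14.5 CPM in that order, while RBCS2B and CAB3 were at 0 in all 16 libraries. Most of the leaf sum was RBCS1A, with means of 80.1, 24.5, 35.6 and 8.74 CPM in the same order. Of the 9, only RBCS1A and RCA passed the filter on low counts. The seed markers did not all move one way. In brm-3dog1-4 against Col-0, 2 of the 13 (CRA1 and SESA4) were called higher and 7 lower by edgeR, beside 22.8% and 23.3% of all tested genes. The summed seed level of dog1-4 overlapped that of Col-0, and the summed leaf level was above Col-0 in each mutant, brm-3 included. The part of the marker levels in the members' results was not tested. In whole seeds, fewer cells of a type and less RNA per cell cannot be told apart.

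MFT and RDO5 were the members with the clearest differences, and both followed the dog1-4 allele. Each was about as high in brm-3dog1-4 as in dog1-4 seeds, and each was lower in brm-3 and in Col-0 seeds. MFT had 115, 110, 136 and 110 CPM in brm-3dog1-4, 52.6, 63.7, 53.8 and 62.9 CPM in brm-3, 137, 73.6, 103 and 118 CPM in dog1-4, and 68.6, 50.5, 52.3 and 55.3 CPM in Col-0. Every library with the dog1-4 allele was above every library without it, although the lowest dog1-4 library, 73.6 CPM, stood near the highest Col-0 library. That library was also the shallowest of the 16, with 57 MFT counts. The means were 118 ± 12.3, 58.2 ± 5.88, 108 ± 26.5 and 56.7 ± 8.23 CPM (SD, n = 4 each) in brm-3dog1-4, brm-3, dog1-4 and Col-0.

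In the quasi-likelihood test of edgeR, with p-values adjusted by Benjamini-Hochberg over all 10251 tested genes, MFT was 2.02-fold higher in brm-3dog1-4 than in Col-0 (log2 fold change 1.02, SE 0.13, adjusted p = 1.36e-09). In dog1-4 it was 1.92-fold higher than in Col-0 (log2 fold change 0.94, SE 0.14, edgeR adjusted p = 1.62e-07). In brm-3 its log2 fold change against Col-0 was 0.02, with a 95% interval of -0.26 to 0.31, and it was not called. The direct comparisons gave the same arrangement, since MFT was 1.99-fold higher in brm-3dog1-4 than in brm-3 (log2 1.00, SE 0.13, edgeR adjusted p = 2.64e-09) and its log2 ratio of brm-3dog1-4 to dog1-4 was 0.07, with an interval of -0.17 to 0.32. The 4 pairwise calls on MFT, which include brm-3 against dog1-4 (log2 fold change -0.92, edgeR adjusted p = 2.54e-07), were kept under all 24 alternative settings, in which its log2 fold change in brm-3dog1-4 against Col-0 ranged from 0.95 to 1.58. With library totals only, MFT was also called higher in brm-3dog1-4 than in dog1-4 (log2 fold change 0.41, edgeR adjusted p = 0.0170). The median gene moved by 0.37 in that comparison under that scaling.

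RDO5 had larger fold changes than the other tested members in the 4 comparisons of a genotype carrying the dog1-4 allele with a genotype lacking it. It had 233, 214, 269 and 263 CPM in brm-3dog1-4, 78.5, 72.8, 68.7 and 98.2 CPM in brm-3, 178, 218, 232 and 221 CPM in dog1-4, and 104, 85.4, 76.4 and 82.9 CPM in Col-0. The 8 libraries with the dog1-4 allele lay between 178 and 269 CPM, and the 8 without it between 68.7 and 104 CPM, with no overlap. The means were 245 ± 25.7, 79.5 ± 13.0, 212 ± 23.9 and 87.3 ± 12.1 CPM (SD, n = 4 each) in brm-3dog1-4, brm-3, dog1-4 and Col-0.

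RDO5 was 2.76-fold higher in brm-3dog1-4 than in Col-0 (log2 fold change 1.47, SE 0.11, edgeR adjusted p = 3.46e-17) and 2.40-fold higher in dog1-4 than in Col-0 (log2 fold change 1.26, SE 0.12, edgeR adjusted p = 2.98e-13). Among the 10251 tested genes it ranked 48 by p in the dog1-4 comparison and 165 in the comparison of the double mutant. In brm-3 it was not called, its log2 ratio of brm-3 to Col-0 being -0.15 with an interval of -0.40 to 0.10. The difference between brm-3dog1-4 and brm-3 was 3.06-fold (log2 fold change 1.61, SE 0.11, edgeR adjusted p = 1.81e-18), and in brm-3 against dog1-4 RDO5 was lower (log2 fold change -1.41, edgeR adjusted p = 8.22e-15). Between brm-3dog1-4 and dog1-4 the log2 fold change was 0.20, with an interval of -0.01 to 0.41 and an edgeR adjusted p of 0.150. That comparison was the one RDO5 result to depend on the setting among the pairs of genotypes, since it was called at 0.54 when counts were scaled by library totals only (edgeR adjusted p = 5.08e-05) and at 0.29 when genes needed 10 counts in every library (edgeR adjusted p = 0.0215).

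**Figure D1:**
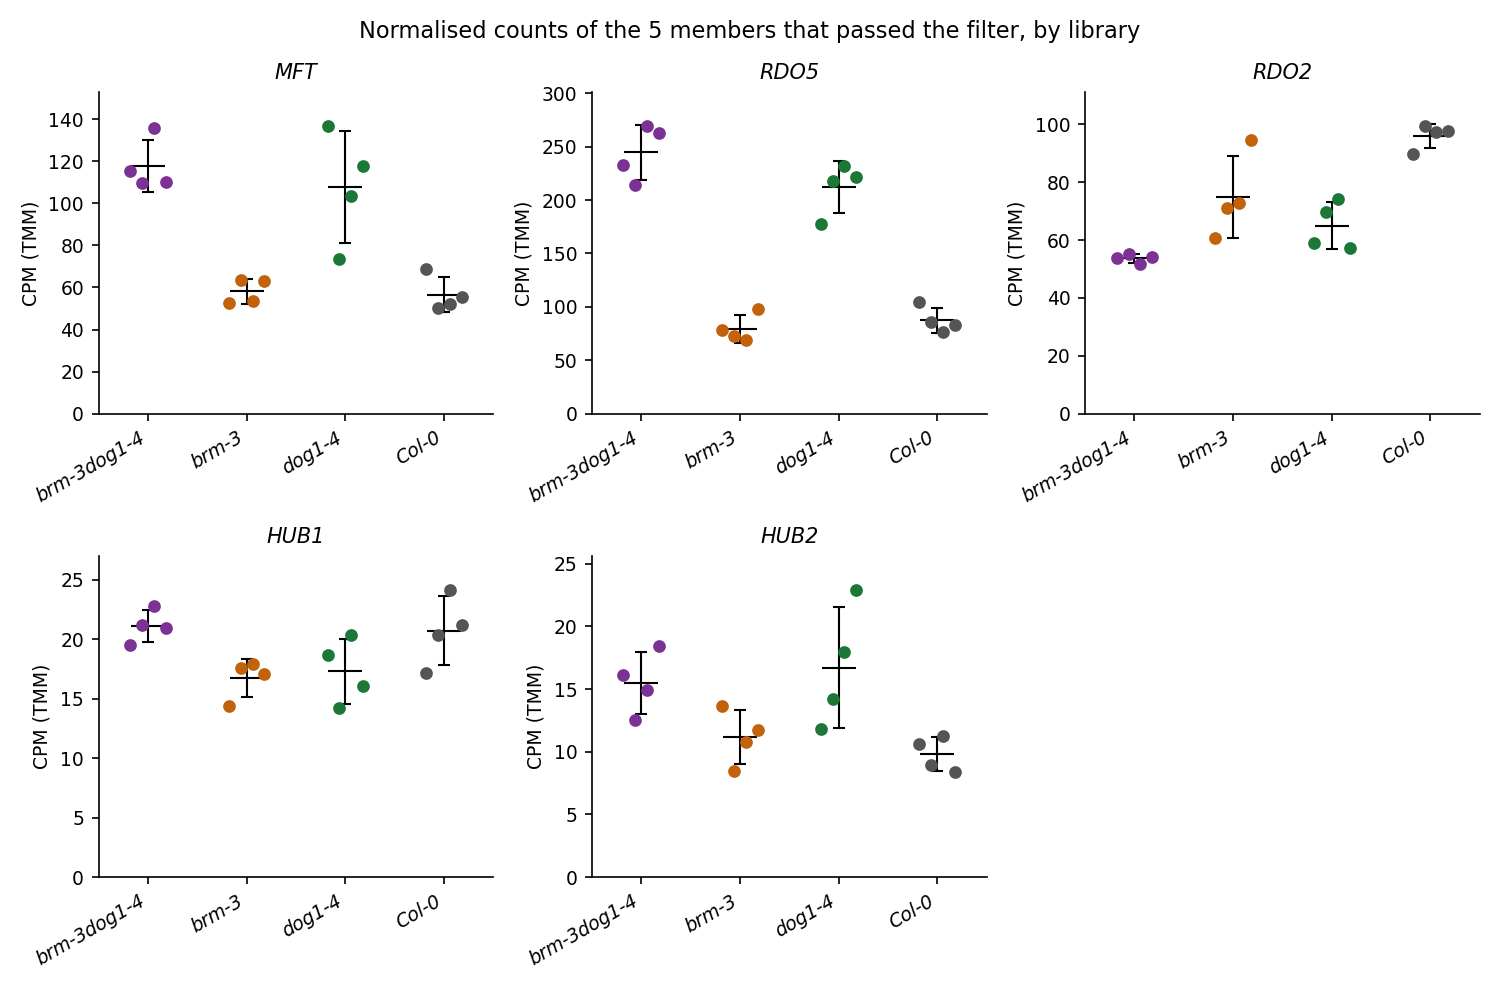
Normalised counts of the 5 tested members, in CPM with TMM scaling on a linear axis, in brm-3dog1-4, brm-3, dog1-4 and Col-0 seeds. Each point is a library and the bars are the mean and SD of 4 libraries. MFT and RDO5 are high in both genotypes that carry dog1-4, and RDO2 is highest in Col-0, with a mean of 96.0 CPM.

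The transcription elongation factor RDO2 went the other way. It had 53.9, 55.3, 51.7 and 54.0 CPM in brm-3dog1-4, 60.8, 71.0, 72.9 and 94.6 CPM in brm-3, 59.0, 69.7, 74.1 and 57.3 CPM in dog1-4, and 89.8, 99.3, 97.3 and 97.7 CPM in Col-0. The brm-3dog1-4 libraries were below all other libraries, and the dog1-4 libraries were below all Col-0 libraries. In brm-3, 3 of the 4 libraries were below the Col-0 range and the other lay inside it. The means were 53.7 ± 1.48, 74.8 ± 14.2, 65.0 ± 8.20 and 96.0 ± 4.22 CPM (SD, n = 4 each) in brm-3dog1-4, brm-3, dog1-4 and Col-0.

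RDO2 fell by 0.83 on the log2 scale in brm-3dog1-4 against Col-0 (SE 0.12, edgeR adjusted p = 3.88e-08) and by 0.57 in dog1-4 against Col-0 (SE 0.13, edgeR adjusted p = 4.51e-04). It was also lower in brm-3dog1-4 than in brm-3 (log2 fold change -0.48, SE 0.12, edgeR adjusted p = 0.00116). In brm-3 against Col-0 the log2 fold change was -0.35 (SE 0.12) and just passed the threshold (edgeR adjusted p = 0.0465), and the call was lost in 13 of 24 alternative settings. These were DESeq2 (adjusted p = 0.121), library totals (edgeR adjusted p = 0.0837), all genes of at least 1 count (0.0716) and 10 fits without a library. The adjusted p of edgeR was 0.205, 0.126 and 0.104 without brm-3 replicates 1, 2 and 3, and 0.0564, 0.0945, 0.0986 and 0.0955 without Col-0 replicates 1 to 4. It was 0.0512 without dog1-4 replicate 2 and 0.0536 and 0.0527 without brm-3dog1-4 replicates 1 and 4. The fall in the double mutant depended on the scaling, as library totals alone gave -0.26 against Col-0 (edgeR adjusted p = 0.0589) and 0.07 against brm-3 (edgeR adjusted p = 0.643), whereas the fall in dog1-4 was called in all 24 alternatives.

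The 2 ubiquitin ligases of histone H2B, which work as partners, had the fewest reads of the tested members, and the difference between their responses was not tested. HUB1 had 19.5, 21.2, 22.8 and 20.9 CPM in brm-3dog1-4, 14.3, 17.6, 17.9 and 17.0 CPM in brm-3, 18.6, 14.2, 20.4 and 16.0 CPM in dog1-4, and 17.2, 20.3, 24.1 and 21.2 CPM in Col-0. The Col-0 range overlapped that of each mutant, and the brm-3dog1-4 libraries were all above the brm-3 libraries. HUB1 was called in 0 of the 6 pairwise comparisons by edgeR, and 0 of these had an unadjusted p under 0.05. Its log2 fold changes against Col-0 were 0.04 in brm-3dog1-4 (interval -0.32 to 0.39), -0.28 in brm-3 (-0.67 to 0.11) and -0.21 in dog1-4 (-0.62 to 0.20). Scaled by library totals only, HUB1 was higher in brm-3dog1-4 than in Col-0 (log2 fold change 0.60, edgeR adjusted p = 0.00336), close to the shift of the median gene under that scaling. It was then also higher in brm-3dog1-4 than in brm-3 (0.86, edgeR adjusted p = 9.5e-05) and than in dog1-4 (0.59, edgeR adjusted p = 0.0122). When genes needed 10 counts in every library, HUB1 was called higher in brm-3dog1-4 than in brm-3 (0.42, edgeR adjusted p = 0.0422).

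HUB2 had 16.2, 12.5, 14.9 and 18.4 CPM in brm-3dog1-4, 13.7, 8.49, 10.8 and 11.8 CPM in brm-3, 11.8, 14.2, 17.9 and 22.9 CPM in dog1-4, and 10.6, 8.95, 11.3 and 8.36 CPM in Col-0. All libraries with the dog1-4 allele were above the highest Col-0 library, and they overlapped the brm-3 libraries. HUB2 was higher in brm-3dog1-4 than in Col-0 (log2 fold change 0.65, SE 0.23, edgeR adjusted p = 0.0177) and higher in dog1-4 than in Col-0 (log2 fold change 0.76, SE 0.25, edgeR adjusted p = 0.0252). It was not called in brm-3 against Col-0 (log2 fold change 0.18, interval -0.34 to 0.70).

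These HUB2 values rested on 11 to 44 counts per library, and both calls were lost with DESeq2 (adjusted p = 0.0902 in brm-3dog1-4 and 0.108 in dog1-4). The dog1-4 call was also lost without dog1-4 replicate 4 (edgeR adjusted p = 0.188), dog1-4 replicate 3 (0.0606), Col-0 replicate 4 (0.0746) or Col-0 replicate 2 (0.0543), and with all genes of at least 1 count in the test (0.0547). The brm-3dog1-4 call was lost without Col-0 replicate 4 (edgeR adjusted p = 0.0643) or without brm-3dog1-4 replicate 4 (0.0728). HUB2 in brm-3 against dog1-4 had a log2 fold change of -0.58 (edgeR adjusted p = 0.0931), and it passed the threshold without dog1-4 replicate 1 (0.0378) and with library totals only (0.0186). In brm-3dog1-4 against brm-3 its log2 fold change was 0.47 (edgeR adjusted p = 0.0868), and it passed without brm-3dog1-4 replicate 2 (0.0417), with upper-quartile scaling (0.0486), with 10 counts in every library (0.0194) and with library totals only (1.72e-04).

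**Figure D2:**
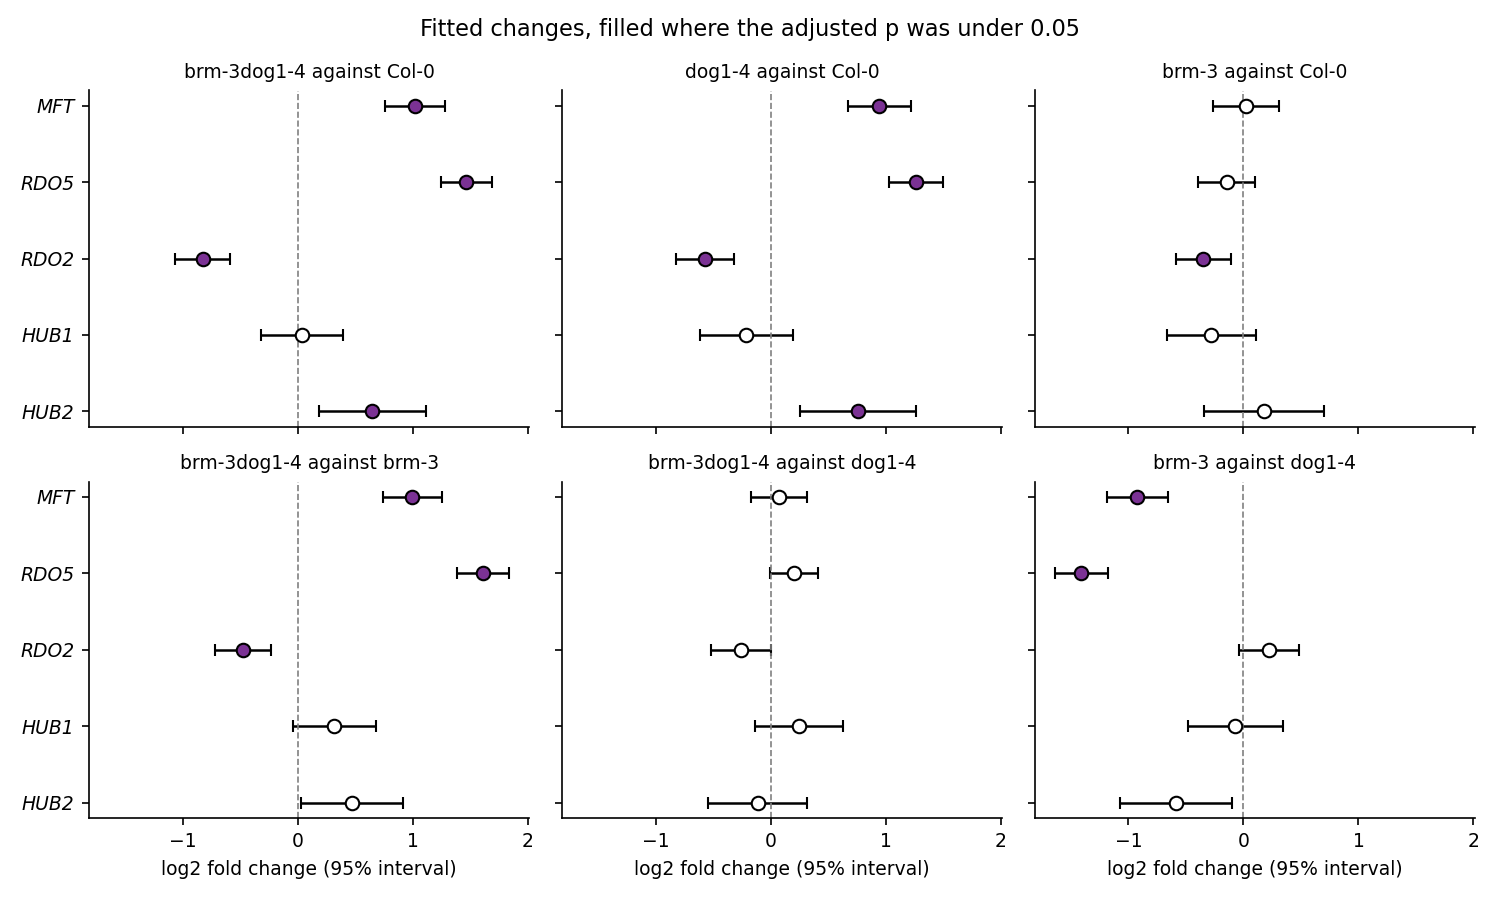
Fitted log2 fold changes of the 5 tested members in the 6 pairwise comparisons, with 95% intervals. Filled points had an adjusted p under 0.05 in edgeR. RDO5 lies at 1.47, 1.26 and 1.61 in brm-3dog1-4 against Col-0, dog1-4 against Col-0 and brm-3dog1-4 against brm-3.

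Counted over members, 4 of the 5 tested were called at an adjusted p under 0.05 in brm-3dog1-4 against Col-0, where 46.1% of all tested genes were called, and they were MFT, RDO5, HUB2 and RDO2. The first 3 were called higher, as were 22.8% of all tested genes, and RDO2 was called lower, as were 23.3%. The same 4 members were called in dog1-4 against Col-0, where 18.4% of all tested genes were called. In brm-3 against Col-0 the 1 member called was RDO2, and 10.2% of all genes were called. In brm-3dog1-4 against brm-3, MFT, RDO5 and RDO2 made 3 calls beside a background of 38.2%, and in brm-3 against dog1-4, MFT and RDO5 made 2 calls beside 16.4%. In brm-3dog1-4 against dog1-4, 0 of 5 were called by edgeR, 0 had an unadjusted p under 0.05, and the background was 27.6%. The median log2 fold change of the 5 members was 0.65 in brm-3dog1-4, -0.15 in brm-3 and 0.76 in dog1-4, all against Col-0, beside 0.01, 0.00 and 0.00 over all tested genes. A median of 5 is the value of 1 gene, here HUB2 in brm-3dog1-4 and dog1-4 and RDO5 in brm-3. It does not describe a shift of all 5, and the HUB2 calls were lost with DESeq2. The 3 comparisons with Col-0 share the same 4 control libraries, so their values are set side by side and are not independent of each other.

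Whether the effect of the brm-3 allele differed with and without DOG1 was tested as an interaction, the change in brm-3dog1-4 beyond the sum of the single mutant changes on the log2 scale. It was called for 0 of 5 members, beside 8.79% of all tested genes. The interaction was 0.05 for MFT (interval -0.32 to 0.42), 0.35 for RDO5 (0.02 to 0.68), 0.10 for RDO2 (-0.26 to 0.45), 0.53 for HUB1 (-0.02 to 1.07) and -0.29 for HUB2 (-0.97 to 0.38). RDO5 alone had an unadjusted edgeR p under 0.05, at 0.0357, with an adjusted p of 0.191. With library totals alone 2 members, RDO5 (0.66, edgeR adjusted p = 0.00589) and HUB1 (0.85, edgeR adjusted p = 0.0377), were called. Of all 10251 tested genes, 869 were then called higher and 249 lower in the interaction.

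The scaling needs to be read with these values. TMM placed the median gene within 0.03 of no change on the log2 scale in every comparison, while library totals alone moved the median gene by 0.58 in brm-3dog1-4, 0.03 in brm-3 and 0.22 in dog1-4, each against Col-0. All genes called in brm-3dog1-4 against Col-0 divided into 2335 higher and 2392 lower with TMM, and into 5870 higher and 825 lower with library totals. The changes given here are therefore relative to the median gene.

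**Figure D3:**
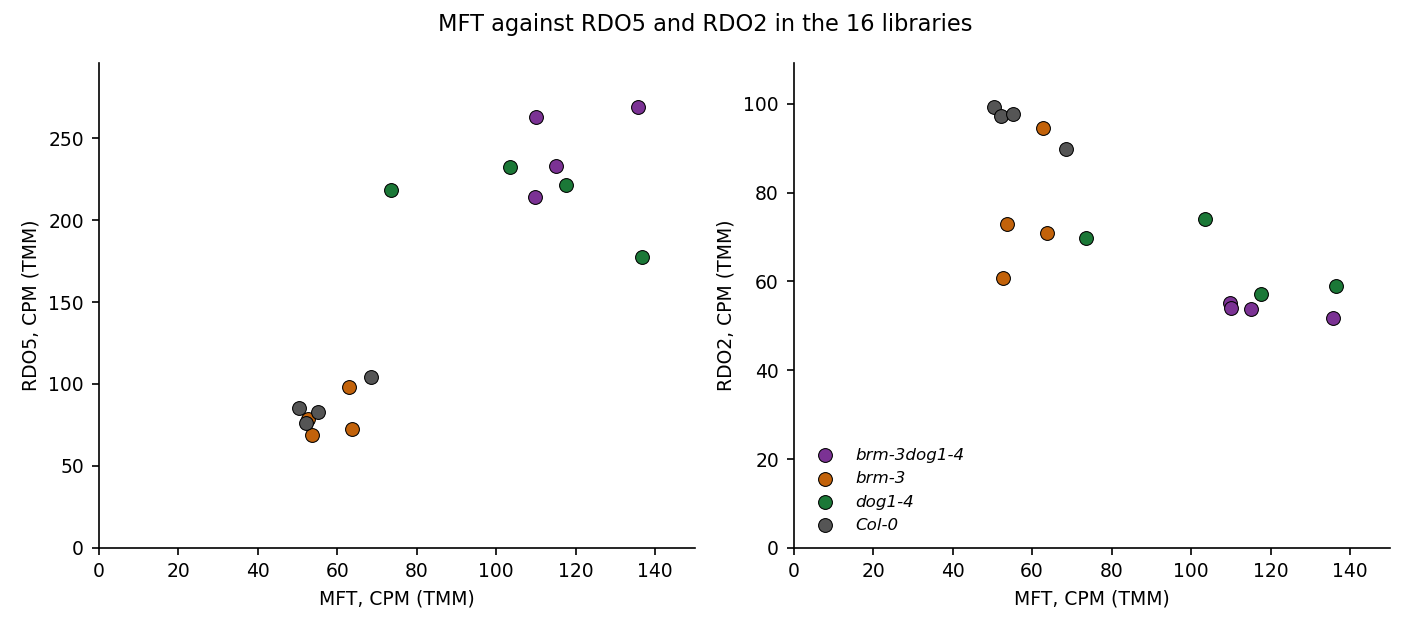
CPM of RDO5 (left) and RDO2 (right) against CPM of MFT in the 16 libraries, coloured by genotype, on linear axes that start at 0. The libraries with dog1-4 have MFT from 73.6 to 137 CPM and RDO5 from 178 to 269 CPM, apart from the libraries without it.

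MFT and RDO5 therefore separated the libraries into the same sets, as the plot of both genes by library shows. Within genotypes this likeness was weak. After the genotype means were removed, the correlation of log2 CPM over the 16 libraries was 0.13 between MFT and RDO5, -0.25 between MFT and RDO2, and at most 0.48 in size among the 10 pairs of tested members, between RDO5 and HUB2. These values are descriptions over libraries that share their normalisation.

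The 4 remaining chromatin genes were near or below what this depth can show. KYP had 1 count in dog1-4 replicate 3 and 1 in brm-3 replicate 4, and 0 in the other libraries. A count of 0 over the 4 libraries of a genotype allows a level of up to 0.331 CPM in brm-3dog1-4 and 0.499 CPM in Col-0, taken as 3 counts over the group. LDL2 had 5 counts in brm-3dog1-4, 1 in brm-3, 2 in dog1-4 and 1 in Col-0, summed over 4 libraries each. At these counts no difference in KYP or LDL2 was detectable, and exact permutation tests of 4 against 4 libraries gave two-sided p-values of 0.257 or more for LDL2 and of 1 for KYP.

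LDL1 and ATXR7 had more reads but stayed below the filter. LDL1 had 8, 9, 2 and 10 counts in brm-3dog1-4, 1, 7, 3 and 7 in brm-3, 3, 4, 1 and 6 in dog1-4, and 4, 2, 0 and 2 in Col-0. Pooled over libraries this was 3.20 CPM in brm-3dog1-4 (exact Poisson 95% interval 2.14 to 4.60), 2.77 in brm-3 (1.64 to 4.38), 2.84 in dog1-4 (1.55 to 4.77) and 1.33 in Col-0 (0.575 to 2.62). The intervals cover counting error only. In brm-3dog1-4, 3 of 4 libraries were above all Col-0 libraries, and the difference did not pass an exact two-sided permutation test of CPM (p = 0.0571, where the smallest p this design allows is 0.0286). The same exact test gave p = 0.229 for brm-3 and for dog1-4 against Col-0. With every gene of at least 1 count in the fit, LDL1 in brm-3dog1-4 against Col-0 had a log2 fold change of 1.22 and an edgeR adjusted p of 0.114, and DESeq2 gave 1.26 with an adjusted p of 0.216.

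ATXR7 had 11, 8, 4 and 6 counts in brm-3dog1-4, 12, 8, 3 and 6 in brm-3, 2, 3, 1 and 7 in dog1-4, and 8, 5, 1 and 4 in Col-0. The ranges overlapped in every comparison. Its mean was 3.29 ± 0.962 CPM in brm-3dog1-4, 4.59 ± 2.71 in brm-3, 2.82 ± 2.16 in dog1-4 and 2.87 ± 1.54 in Col-0 (SD, n = 4 each), and exact permutation tests against Col-0 gave p = 0.743, 0.314 and 0.886 for the mutants in that order.

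**Figure D4:**
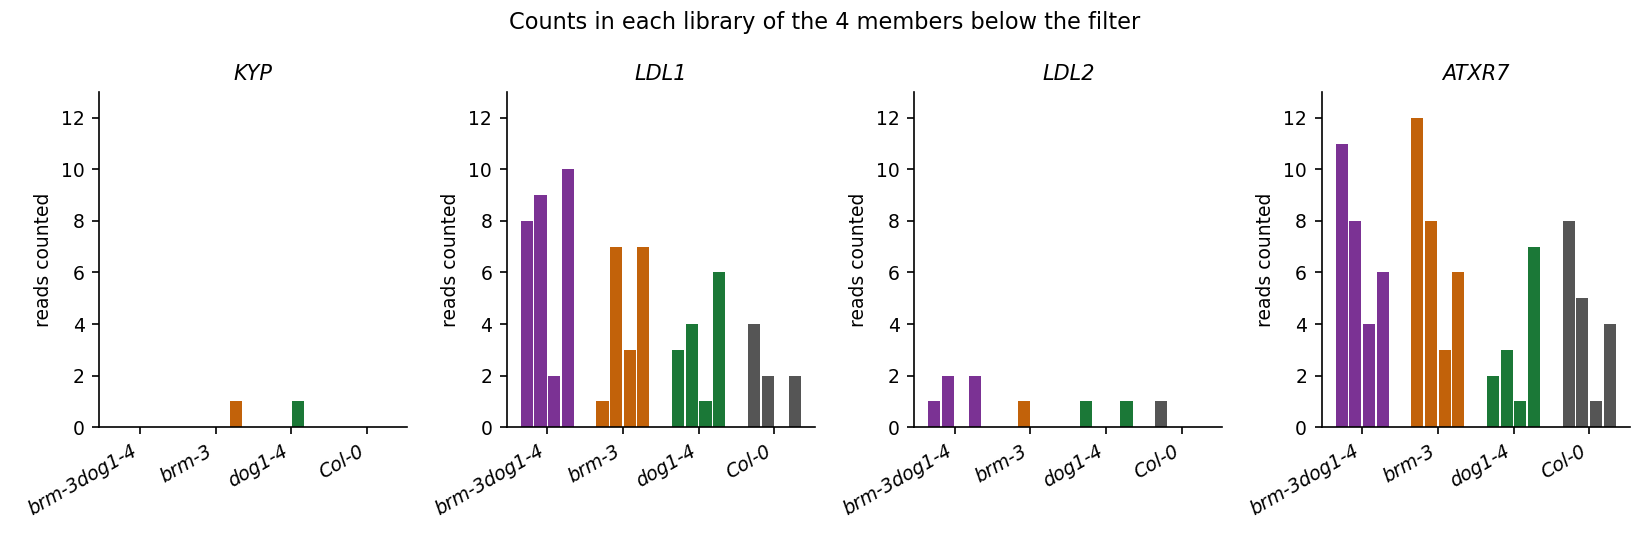
Reads counted for KYP, LDL1, LDL2 and ATXR7 in each library, not scaled for depth. Bars are libraries, in the order of replicates 1 to 4, in brm-3dog1-4, brm-3, dog1-4 and Col-0, and the highest bar is 12 counts for ATXR7 in brm-3.

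Genes that work in the same machineries were counted by list. In brm-3dog1-4 against Col-0 their calls are to be read beside the 46.1% of all tested genes called with TMM, and the 5870 of all 10251 called higher with library totals only. For brm-3 and dog1-4 against Col-0 the shares of all tested genes called with TMM were 10.2% and 18.4%. The genes named from these lists as called higher stayed so with library totals only, whereas those called lower were no longer called. Of 16 listed genes for H2B ubiquitination and transcript elongation, 15 were tested, and 1 was called higher and 1 lower in brm-3dog1-4 against Col-0. The first was VIP4, a subunit of the Paf1 complex, which averaged 23.8 CPM in brm-3dog1-4 and 15.1 CPM in Col-0 (log2 fold change 0.63, edgeR adjusted p = 0.00830), a call that was lost with DESeq2 (adjusted p = 0.0528). The other was SPT16, a subunit of the histone chaperone FACT, with 44.3 CPM in brm-3dog1-4 and 59.5 CPM in Col-0 (log2 fold change -0.43, edgeR adjusted p = 0.00580). With library totals only, 11 of the 15 were called higher and 0 lower, and SPT16 turned to 0.14 (edgeR adjusted p = 0.375). In brm-3 and in dog1-4 against Col-0, 0 of the 15 were called by edgeR or by DESeq2, and 3 and 1 of them had an unadjusted edgeR p under 0.05. Their median log2 fold change in brm-3dog1-4 was 0.00, beside 0.01 for all tested genes, both with TMM.

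Of 10 listed genes for H3K9 and DNA methylation, the pathway of KYP, 4 were tested. In brm-3dog1-4 against Col-0, 2 of them were called lower and 0 higher. IBM1, an H3K9 demethylase that acts against KYP, averaged 12.9 CPM in brm-3dog1-4 and 20.2 CPM in Col-0 (log2 fold change -0.72, edgeR adjusted p = 0.00496), and it was also called lower in dog1-4 against Col-0 (log2 fold change -0.67, edgeR adjusted p = 0.0483). That second call was lost with DESeq2 (adjusted p = 0.181), upper-quartile scaling (edgeR adjusted p = 0.0622) and library totals only (0.246). SUVH6, an H3K9 methyltransferase related to KYP, averaged 3.56 CPM in brm-3dog1-4 and 6.42 CPM in Col-0 (log2 fold change -0.93, edgeR adjusted p = 0.0217). With library totals only, IBM1 (-0.15) and SUVH6 (-0.36) were not called, and 2 others of the 4 were called higher, while DESeq2 called IBM1 (adjusted p = 0.0489) and not SUVH6 (0.0947) in brm-3dog1-4. In brm-3 against Col-0, 0 of the 4 were called by edgeR or DESeq2, and 1 had an unadjusted edgeR p under 0.05.

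Of 12 listed genes for H3K4 methylation and demethylation, 7 were tested and 1 was called, lower, in brm-3dog1-4 against Col-0. It was WDR5A, a core subunit of H3K4 methyltransferase complexes, with 3.69 CPM in brm-3dog1-4 and 7.11 CPM in Col-0 (log2 fold change -0.89, edgeR adjusted p = 0.0431), a call that was lost with upper-quartile scaling (0.0581) and with all genes of at least 1 count (0.0540). The gene with the next smallest p, the histone methyltransferase SDG8, had 24.2 CPM in brm-3dog1-4 and 27.8 CPM in Col-0 (log2 fold change -0.26, edgeR adjusted p = 0.255). DESeq2 called 0 of the list in this comparison, and with library totals only 2 of the 7 were called higher and 0 lower, SDG8 turning to 0.31 without being called. In each single mutant against Col-0, 0 of the 7 were called by edgeR or DESeq2, and 0 had an unadjusted edgeR p under 0.05.

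Of 9 listed genes for histone deacetylation, 8 were tested, and 2 were called higher and 0 lower in brm-3dog1-4 against Col-0. HDT1, a plant-specific histone deacetylase, averaged 16.3 CPM in brm-3dog1-4, 4.69 in brm-3, 10.4 in dog1-4 and 6.86 in Col-0 (log2 fold change 1.17 in brm-3dog1-4 against Col-0, edgeR adjusted p = 1.80e-04). SNL1, a SIN3-like co-repressor with a role in dormancy, averaged 46.7 CPM in brm-3dog1-4 and 33.0 CPM in Col-0 (log2 fold change 0.40, edgeR adjusted p = 0.0356). HDT1 was also called by DESeq2 (adjusted p = 0.00436), SNL1 was not (0.103), and with library totals only 6 of the 8 were called higher. In each single mutant against Col-0, 0 of the 8 were called by edgeR or DESeq2, and 1 in each had an unadjusted edgeR p under 0.05. In the interaction, 2 genes of this list were called, HDT1 (1.31, edgeR adjusted p = 0.0498) and its relative HDT2 (0.57, edgeR adjusted p = 0.0477), both just under the threshold. Of all tested genes, 8.79% were called in the interaction, and 1.95% were called higher, as these 2 were. HDT1 was lost with all genes of at least 1 count (edgeR adjusted p = 0.0531) and was given no adjusted p by DESeq2, and HDT2 was lost with DESeq2 (adjusted p = 0.0852).

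The relatives of MFT and the genes placed downstream of RDO5 were at or near 0. FT had 2 counts in the 16 libraries, and TSF, TFL1, BFT and ATC had 0, so MFT was the one gene of its family listed here with a measurable level. The RNA-binding protein genes APUM9 and APUM11, the genes placed downstream of RDO5, also had 0 counts, and no comparison could be made.

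The tested genes whose log2 CPM was most like that of each member over the 16 libraries, by Pearson's r, are given as a description, since the libraries share genotypes and normalisation. For MFT they were STS, a stachyose synthase gene (r = 0.94), and SHM4, a serine hydroxymethyltransferase gene (r = 0.94), with 38.5 and 21.2 CPM in brm-3dog1-4 and 8.01 and 7.11 CPM in Col-0. For RDO5 they were CSLE1, a cellulose synthase-like gene (r = 0.95), and AT4G27090 (r = 0.95), with 290 and 157 CPM in brm-3dog1-4 and 134 and 69.3 CPM in Col-0. For RDO2 they were AT1G52560 (r = 0.95) and AT2G47330 (r = 0.94), which were lower in brm-3dog1-4, at 53.2 and 43.7 CPM, than in Col-0, at 234 and 64.7 CPM. The nearest genes were less alike for HUB1, with AGL18 at 0.84 and SWAP70 at 0.81, and for HUB2, with ATRX at 0.85 and AT3G22150 at 0.84.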

How the data were processed

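Libraries were grouped by their labels, 4 per genotype. Each file deposited by the authors holds 1 library's counts, unscaled whole reads per locus. The submitters' processing notes name STAR 2.7.8a, DESeq2 and TAIR10. The aligner's settings, the counting program, the use of strand and of molecular identifiers are not given in the sources used here, so overlapping and antisense genes are uncertain. Of 37336 identifiers, 37051 were in the TAIR10.1 annotation, which gave names, positions and sequences. From the counts, edgeR 4.0.16 in R 4.3.3 was run with TMM, filterByExpr by genotype and the robust quasi-likelihood test in one fit of 16 libraries, and tested on simulated data. Of 21204 genes with a count, 10251 were tested, and an adjusted p under 0.05 was called. CPM values are TMM-scaled, and the log2 CPM values used for correlations had a prior count of 2. That setting was not used for the log2 fold changes, which came from the fits. Members below the filter were compared by exact permutation. Alternatives were RLE, upper-quartile and library-total scaling, other filters, DESeq2 1.42.0, 2 genotypes only, a replicate block and each library left out. The members and lists were chosen with earlier results of these data known. Genes named beside the members were DOG1, BRM, the 2 smallest adjusted p of each list in brm-3dog1-4 against Col-0 and the 2 most alike to each member; HDT2 and the IBM1 value in dog1-4 were chosen after their values were seen.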

Additional observations from a re-analysis of the deposited data

How the results depend on the processing

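Same-numbered replicates of different genotypes showed little shared deviation, with correlations of -0.03 to 0.07. Their median was 0.015, against -0.014 for different numbers. Correlations this small cannot tell whether same-numbered samples were handled together. The replicate block left all 35 member results on their side of the threshold (RDO5 in brm-3dog1-4 against Col-0 had a log2 fold change of 1.46 with it). RLE scaling also left 35 of 35 there. Members called in brm-3 against Col-0 went to 0, against 1, with library totals only, with all genes of at least 1 count and with DESeq2, and ranged from 0 to 1 with 1 library left out. Members called in brm-3dog1-4 against brm-3 numbered 5, against 3, when genes needed 10 counts in every library. Of all 5686 genes tested with that filter, 1316 were called higher and 1352 lower in this comparison. In brm-3dog1-4 against dog1-4, members called numbered 3 with library totals only and 1 with 10 counts in every library, against 0. Library totals called 3689 of all 10251 genes higher and 699 lower there, and the 10-count filter called 937 of 5686 higher and 1064 lower. In the interaction, members called numbered 2 with library totals only, against 0, beside 869 of all 10251 genes called higher and 249 lower. RDO2 in brm-3dog1-4 against brm-3 turned to 0.067 with library totals only. The cause of these shifts was not tested, beside the shift of the median gene under library totals given above. With 1 library left out, 542 member results kept their side, 16 lost a call and 2 gained one. HUB1 and HUB2 rested on 11 to 66 counts per library, and smaller changes in them could be missed.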

Other observations

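Genes of the H3K9 and DNA methylation list differed widely in their reads in dry seeds. Over the 16 libraries CMT2 and SUVH5 had 2 counts each, CMT3 had 1, DDM1 had 2 and MET1 had 12, whereas SUVH2 had 43, SUVH6 had 143, DRM2 had 375, IBM1 had 393 and SUVH9 had 410. KYP, which acts in the same pathway, had 2.

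The annotated 3′ ends of several members lie near a gene on the opposite strand. KYP overlaps AT5G13970 by 60 bases, and that gene had 1297 counts in the 16 libraries, against 2 for KYP. ATXR7 ends 161 bases from SPP on the opposite strand, which had 1407 counts, against 89 for ATXR7. RDO2 overlaps AT2G38570 by 7 bases, with 9 counts, against 1867 for RDO2. The part of these neighbours in the members' counts was not tested.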
